A study of Mus musculus with 6 samples.

Results

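The genes described here encode the enzymes that cut the extracellular matrix and cell surface proteins, and the tissue inhibitors that hold these enzymes in check, in mouse atrial tissue. They were chosen by name: every gene of the deposited table whose symbol, ignoring case, is Mmp, Adam, Adamts or Adamtsl followed by a number, or one of Timp1 to Timp4. The rule found 84 of 43432 genes, namely 23 matrix metalloproteinases (MMPs), 4 tissue inhibitors of metalloproteinases (TIMPs), 33 ADAM genes, 19 ADAMTS genes and 5 ADAMTS-like genes. The name rule itself uses no measured value, although the members were chosen with earlier results of these data known.

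WT C57BL/6J mice were given either a high-fat diet (HFD) or control chow from 6 weeks of age for 10 weeks, and RNA of right and left atrial tissue was sequenced in 3 HFD and 3 control mice, a set apart from the mice used for electrophysiology. The labels name no transgene, drug or surgery in either group. The study used this diet as a model of obesity-related atrial fibrillation, and the comparison asks how obesity affects transcription in the atria. In the sample labels the title and the treatment field give opposite diets for all 6 mice, and the titles were followed here, as they match the columns of the deposited table.

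MMPs and ADAMs are zinc proteases made as inactive precursors, which are activated when a propeptide is removed. MMPs are mostly secreted and cut collagens, laminins, elastin and other matrix proteins, while ADAMs sit in the cell membrane and release (shed) growth factors, cytokines and receptors from the cell surface. ADAMTS proteases are secreted, bind to the matrix and cut proteoglycans, procollagen and other matrix proteins, ADAMTS-like proteins share their domains but have no protease domain, and TIMPs bind and block the active site. In the heart these genes are best known for the turnover of the collagen network, and the ratio of Timp1 to a gelatinase is used as a marker of matrix remodeling.

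The values are read counts per gene divided by the authors' size factor for each sample, called normalized counts. Reads on genes amounted to between 15874251 and 28971508 per mouse, the deepest library being that of control mouse 2. A floor of 3 reads corresponded to between 2.05 and 3.41 normalized counts, which covers counting error only. The 84 genes took up 0.166% to 0.227% of all reads. The sum of 4 atrial cardiomyocyte markers (Nppa, Myl7, Myl4 and Sln) was 283677 and 280221 normalized counts in HFD mice 1 and 2, against 434544 to 510615 in the other 4 mice, so these HFD mice stood apart on this sum. Sln alone of these markers was lower in all 3 HFD mice (19693 to 23714, against 25151 to 27600 in control mice). Nppa, the atrial natriuretic peptide that marks this chamber, had 171702 to 333975 in every mouse. The sum of 4 ventricular markers was highest in control mouse 2 (17399, against 6882 to 9866 in the other mice). Fewer cells of a type and less RNA per cell cannot be told apart in such bulk samples.

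The atria expressed most of the matrix-acting genes and few of the ADAM genes known from the testis. Of the 84 genes, 51 had a mean of at least 10 normalized counts over the 6 mice and were tested, 15 had reads but a lower mean, and 18 had no read in any mouse. All 4 TIMPs and all 5 ADAMTS-like genes were tested, as were 15 of 23 MMPs, 15 of 19 ADAMTS genes and 12 of 33 ADAMs. Of 21 ADAM genes known mainly from testis and sperm, only Adam1a was tested, and 12 had no read. Adam4, with a mean of 9.02, was the highest of the untested genes, and no untested gene exceeded 14.6 normalized counts in any mouse. A count of 0 reads in these libraries allows up to 3 reads, so transcripts below that floor were not detectable.

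Per kilobase of exon, a scale on which genes can be compared, Timp2 had the highest level of all tested members. It reached 1514 ± 132 normalized counts per kb in control mice and 1338 ± 17.2 in HFD mice (SD, n = 3 each). Timp3, the TIMP that is bound to the matrix, followed in control mice with 665 ± 236, an SD wide enough to overlap with the genes next in order. Mmp2 (gelatinase A) stood at 625 ± 110.4 and Mmp15 (MT2-MMP, a membrane-anchored MMP) at 577 ± 14.8 per kb in control mice. Adamtsl4 and Adamtsl5, which bind the microfibrils that carry elastin, had 518 ± 63.0 and 325 ± 57.8. The ADAM with the highest mean was Adam9, a sheddase, with 269 ± 20.3 per kb in control and 319 ± 21.4 in HFD mice. Adam15 had 232 ± 31.4 and 314 ± 26.7, so the SDs of the 2 genes overlapped.

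**Figure D1:**
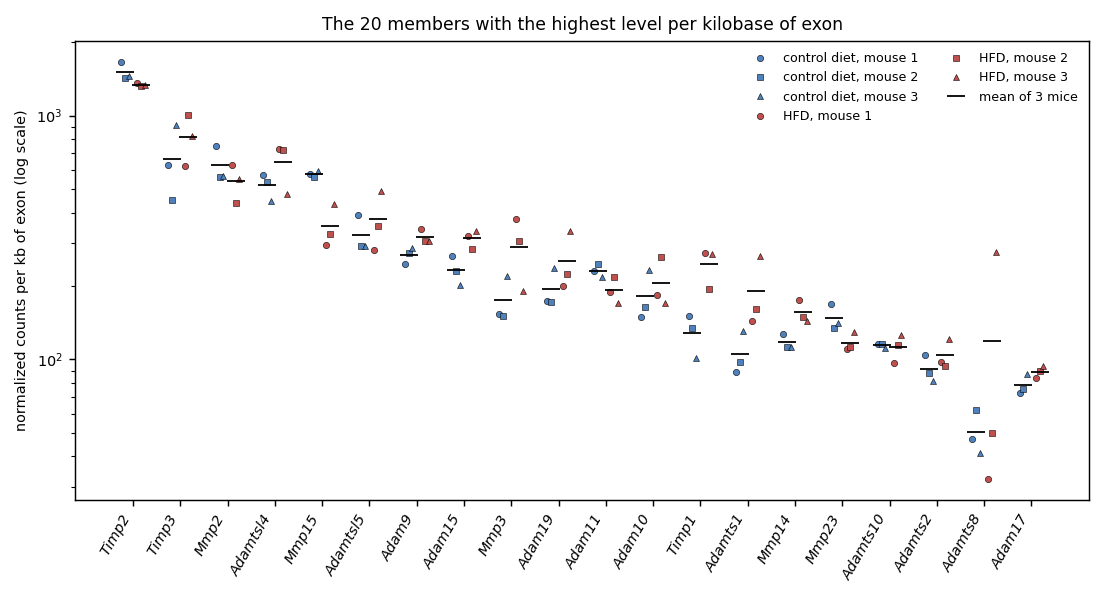
The level of the 20 members with the highest mean, in normalized counts per kb of exon on a log axis, with each mouse as a point (blue for control diet, red for HFD) and the mean of 3 mice as a bar. Timp2 lies above all other members in every mouse, Mmp15 lies lower in all 3 HFD mice, and Timp1, Adamts1 and Adam15 lie higher in all 3 HFD mice.

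Between the diets, no member passed the threshold of limma with Benjamini-Hochberg adjustment over all 15275 genes tested (adjusted p under 0.05), neither higher nor lower in HFD atria. Of all genes tested, 0.484% were called higher and 0.262% lower by that rule. At an unadjusted p under 0.05, 9 of the 51 members were higher (17.6%, against 6.66% of all genes tested) and 2 were lower (3.92%, against 5.55%). The 3 HFD values all lay above the 3 control values for 9 members, or 17.6%, where 8.86% of all genes did so, and all lay below for 4 members, or 7.84%, where 9.17% did. The median log2 fold change of the 51 members was 0.23, with 35 of them above 0, against a median of 0.0049 over all genes tested, of which 50.8% were above 0.

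The count tests were run on the reads recovered from the normalized counts. With edgeR (TMM), 0 members were called in either direction, against 0.373% of all genes higher and 0.196% lower. With DESeq2, which called more genes throughout (2.07% higher and 1.26% lower of 14079 with an adjusted p), 4 of 47 members were called higher (8.51%), namely Adamts1, Timp1, Timp4 and Mmp28, and 1 lower (2.13%), Mmp15. A p-value here covers these mice only, and limma, edgeR and DESeq2 set the variance of a gene partly by that of other genes. An exact permutation p of 3 against 3 mice cannot fall below 0.1.

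**Figure D2:**
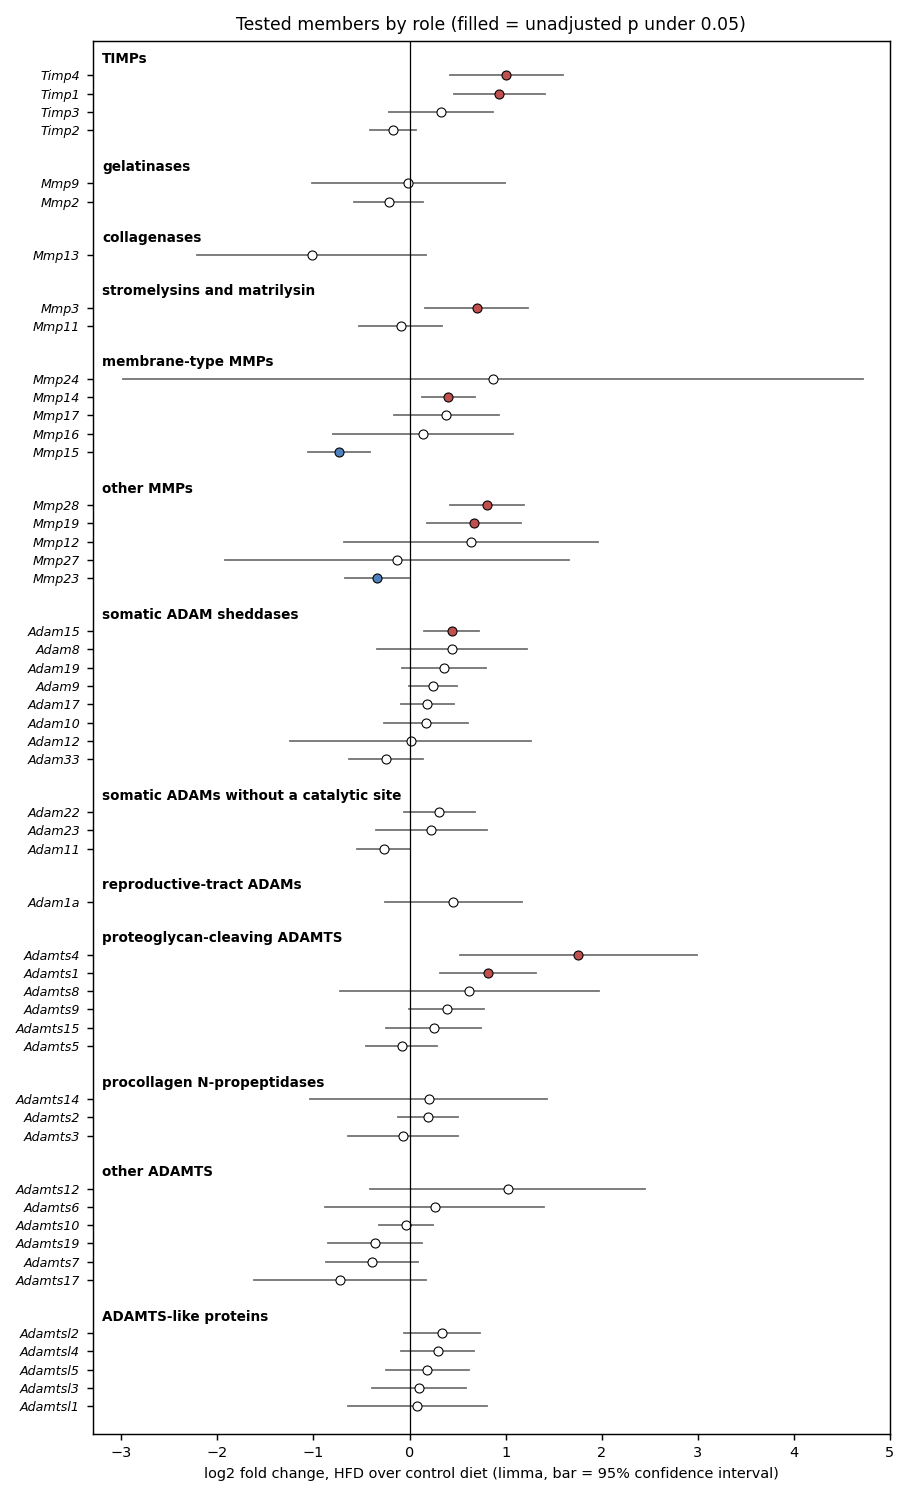
The log2 fold change of HFD over control diet (log2 of normalized count + 1) for the 51 tested members by role, with 95% confidence intervals from limma. Filled points are the 11 members with an unadjusted p under 0.05, 9 to the right of 0 and 2 to the left, and no member passed the adjusted threshold.

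Among the inhibitors, Timp1 and Timp4 had higher point estimates in HFD atria (folds of 1.91 and 2.01), while the point estimate of Timp2 was lower and the values of Timp3 overlapped between the diets. Timp1 is an inducible, secreted inhibitor that acts on most MMPs. It had 242, 173 and 241 normalized counts in HFD mice 1, 2 and 3 and 133, 119.8 and 89.6 in control mice 1, 2 and 3. All 3 HFD mice lay above all control mice, with a 95% confidence interval of the fold from 1.38 to 2.66, a log2 fold change of 0.93 ± 0.21 (SE) and a limma adjusted p of 0.0826. Timp1 was called higher by DESeq2 (adjusted p = 0.00960) but not by edgeR (0.0862). The gene lies on chromosome X, 20870166 to 20874735 (GRCm38), inside an intron of Syn1 on the opposite strand, and Syn1 itself had between 17.5 and 87.4 normalized counts.

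Timp4 is the inhibitor whose transcript is known for its abundance in heart. In these atria it had the lowest level of the TIMPs per kb of exon, 36.7 ± 14.9 in control and 70.4 ± 10.5 in HFD mice (SD). It had 477, 353 and 415 normalized counts in the 3 HFD mice and 207, 309 and 133 in the 3 control mice. The groups did not overlap, but control mouse 2 came close to HFD mouse 2. Its log2 fold change was 1.01 ± 0.26 (SE), with a limma adjusted p of 0.122, a DESeq2 adjusted p of 0.0174 and an edgeR adjusted p of 0.163. The lowest log2 fold change with a mouse left out was 0.70.

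Timp2, which also helps MT1-MMP to activate the precursor of MMP2, had 5285, 5152 and 5203 normalized counts in HFD mice and 6489.6, 5535 and 5675 in control mice. All 3 HFD values were below all 3 control values, yet the difference was small: a log2 fold change of -0.17, with a 95% confidence interval of -0.42 to 0.07 and a limma adjusted p of 0.574. Timp3 had 5038, 8166 and 6748 in HFD and 5091, 3681 and 7484 in control mice, so the groups overlapped (log2 fold change 0.33, 95% confidence interval -0.21 to 0.87). Of its exon bases 21.3% overlap exons of Syn3 on the opposite strand. Whether reads were counted by strand is not stated, so reads of the pair may be mixed.

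The gelatinases, Mmp2 and Mmp9, did not separate the diets. Mmp2 cuts denatured collagen and basement membrane collagen, and is made mainly by fibroblasts. It had 2109.6, 1477 and 1862 normalized counts in HFD mice and 2537, 1885 and 1901 in control mice, with a log2 fold change of -0.22 (95% confidence interval -0.57 to 0.14). Mmp9, which is made mainly by leukocytes, had 346 in HFD mouse 1 but 77.5 and 97.7 in HFD mice 2 and 3, against 160.1, 144 and 117 in control mice. HFD mouse 1 was thus above all control mice and the other 2 HFD mice below all of them, and the log2 fold change of -0.01 has a confidence interval from -1.02 to 0.99. HFD mouse 1 also had the highest sum of 5 neutrophil markers, 83.4 normalized counts against 55.1 and 60.2 in the other HFD mice and 28.0 to 37.0 in control mice. The single markers did not all follow this order. Csf3r, the only marker of these with a mean high enough for testing, was highest in HFD mouse 3 (49.98, against 47.2 in HFD mouse 1). In HFD mouse 3 Mmp9 was low (97.7). S100a8, S100a9 and Retnlg were highest in HFD mouse 1, but their means were too low for testing. Ly6g had at most 1.02 normalized counts in any mouse. The part of neutrophils in the Mmp9 value was not tested.

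The study also measured ratios of Timp1 to Mmp2 and Mmp9 by RT-qPCR, and the same ratios were computed here. The ratio of Timp1 to Mmp2 was 0.115, 0.117 and 0.129 in the 3 HFD mice and 0.0525, 0.0635 and 0.0472 in the 3 control mice. The values were close to one another within each group and did not overlap, with a difference of 1.15 on the log2 scale. The two-sided exact permutation test gave p = 0.1, the smallest that 3 against 3 mice can give. The ratio of Timp1 to Mmp9 was 0.701, 2.24 and 2.47 in HFD and 0.832, 0.829 and 0.766 in control mice. HFD mouse 1, with its high Mmp9, fell below all control mice, and the difference of 0.95 on the log2 scale had an exact permutation p of 0.4. Each difference combines 2 transcripts, whose own values are given above.

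**Figure D3:**
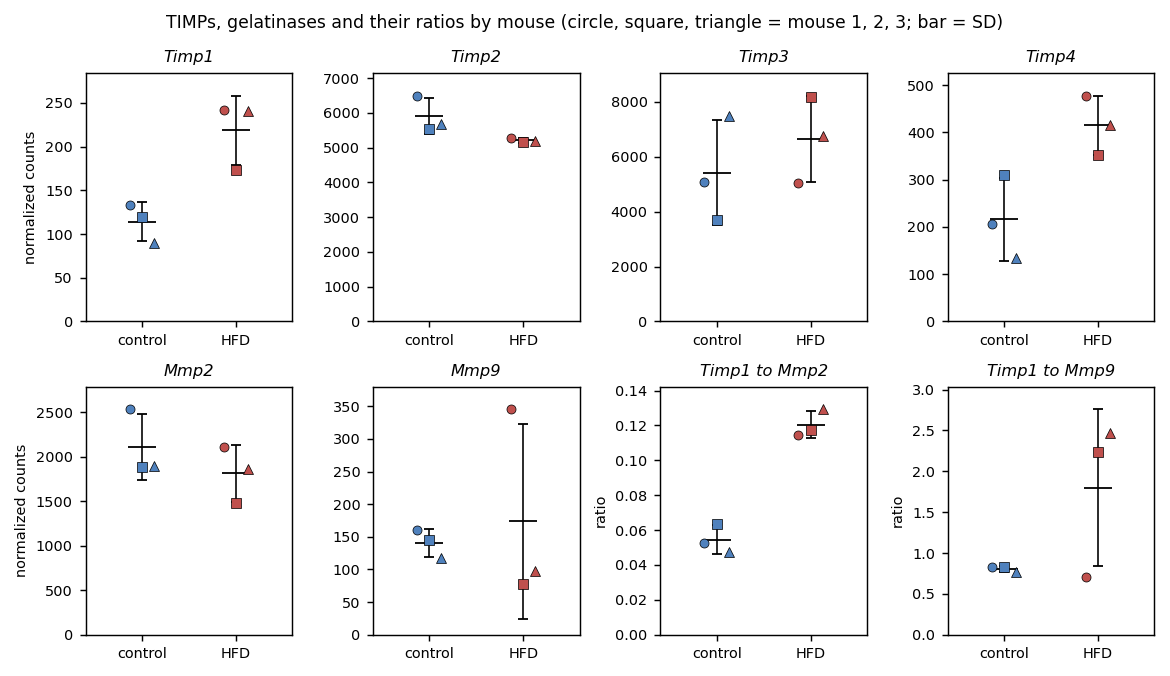
The 4 TIMPs and both gelatinases in normalized counts, and the ratios of Timp1 to each gelatinase, in every mouse (blue for control diet, red for HFD), with the mean and SD of 3 mice. Timp1, Timp4 and the ratio of Timp1 to Mmp2 lie higher in all 3 HFD mice, whereas HFD mouse 1 alone carries the high Mmp9 value of 346.

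Mmp15 had the smallest p of all members. It encodes MT2-MMP, a membrane-anchored protease that can activate the precursor of MMP2. It had 1586, 1761 and 2352 normalized counts in HFD mice against 3124, 3032 and 3191 in control mice. The control mice were close to one another and all 3 HFD mice lay below them, at 0.601 times the control level (95% confidence interval 0.482 to 0.751), a log2 fold change of -0.73 ± 0.14 (SE). The limma adjusted p was 0.0529, just outside the threshold. It fell inside it with quantile normalization (0.0337), without mitochondrial genes (0.0354), with either other filter on low values (0.0419 and 0.0426) and with DESeq2 (0.000495), but not with edgeR (0.0658) or in limma without a variance trend (0.234), and it was 0.00282 without HFD mouse 3 and between 0.135 and 0.176 without any other mouse. The lowest 2 HFD values came from HFD mice 1 and 2, whose sum of atrial cardiomyocyte markers was also low. HFD mouse 3 had the highest marker sum of all mice (510615) and an Mmp15 value below all control mice. The markers did not move together in that mouse. Nppa (333975) and Myl4 (98076) were above all control mice and Myl7 (58765) was within their range. Sln (19799) was below all control mice (25151 to 27600). The part of cardiomyocyte content in the Mmp15 difference was not tested.

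The other membrane-type MMPs leaned the other way or were too variable. Mmp14 (MT1-MMP), which cuts fibrillar collagen and activates the precursor of MMP2, had 1045, 888 and 854 normalized counts in HFD and 759, 670.0 and 672 in control mice. The groups did not overlap, with a log2 fold change of 0.40 ± 0.13 (SE) and a limma adjusted p of 0.199. Mmp16 and Mmp17 overlapped between the diets. Mmp24 (MT5-MMP) was at or near the floor in most mice but had 112 normalized counts in HFD mouse 3 and 140.3 in control mouse 2, so that 1 mouse of each diet carried nearly all of its reads. Its exons share 13.6% of their bases with BC029722 on the opposite strand. BC029722 was lowest in those same mice (194 in HFD mouse 3 and 344 in control mouse 2, against 387 to 483 in the others). Whether reads of this pair were mixed was not tested.

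The 10 MMP genes on chromosome 9, between 7272514 and 7699585 (GRCm38), which include collagenases, stromelysins and matrilysin, were detected only in part. Mmp1a, Mmp1b, Mmp7, Mmp10 and Mmp20 had no read, Mmp8 had 8 reads in all, and Mmp3, Mmp12, Mmp13 and Mmp27 were tested. Mmp3 (stromelysin-1) cuts proteoglycans, laminin and fibronectin and activates other MMP precursors. It had 676 and 551 normalized counts in HFD mice 1 and 2 and 343 in HFD mouse 3, against 278, 271 and 395 in control mice. HFD mouse 3 lay inside the control range, so the groups overlapped (log2 fold change 0.70 ± 0.24 SE, limma adjusted p = 0.262). Without HFD mouse 3 the log2 fold change was 0.98 and the adjusted p 0.0252.

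Mmp13 (collagenase-3), the only collagenase that was tested, had 8.04, 8.16 and 9.09 normalized counts in HFD and 12.3, 19.8 and 24.0 in control mice. All HFD values were lower, from few reads per mouse, with a log2 fold change of -1.02 (95% confidence interval -2.21 to 0.17) and a limma adjusted p of 0.495. Mmp27 had 42.2 and 38.8 in HFD mice 1 and 2, like Mmp3 on the high side, and 3.41 in HFD mouse 3, against 14.6, 33.5 and 17.5 in control mice. Mmp11 (stromelysin-3), which lies on another chromosome, had a log2 fold change of -0.09 and overlapped between the diets.

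Of the remaining MMPs, Mmp28 and Mmp19 were higher in all 3 HFD mice. Mmp28 (epilysin) is expressed in epithelia and macrophages among other cells. It had 214, 263 and 217 normalized counts in HFD and 142, 117 and 136 in control mice, which leaves a wide gap between the groups (fold 1.75, 95% confidence interval 1.34 to 2.28). Its log2 fold change was 0.81 ± 0.17 (SE), with a limma adjusted p of 0.0668, an edgeR adjusted p of 0.0646 and a DESeq2 adjusted p of 0.0103. Mmp28 shares 12.0% of its exon bases with 1700020L24Rik on the opposite strand, which had 76.3, 61.2 and 30.7 in HFD and 63.8, 35.6 and 32.8 in control mice.

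Mmp19 cuts basement membrane proteins and aggrecan. It had 259, 204 and 184 normalized counts in HFD and 174, 131 and 105 in control mice, with a log2 fold change of 0.67 ± 0.22 (SE) and a limma adjusted p of 0.229. The ranges were adjacent, with HFD mouse 3 only just above control mouse 1. Exons of Tmem198b on the opposite strand, with 249 to 324 normalized counts, cover 22.3% of the Mmp19 exon bases. Mmp23, a membrane protein whose catalytic domain is released when it is cut, had 258, 262 and 302 in HFD and 394, 316 and 331 in control mice. It was lower in all 3 HFD mice by a small margin, with a log2 fold change of -0.34 ± 0.15 (SE) and a limma adjusted p of 0.397.

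**Figure D4:**
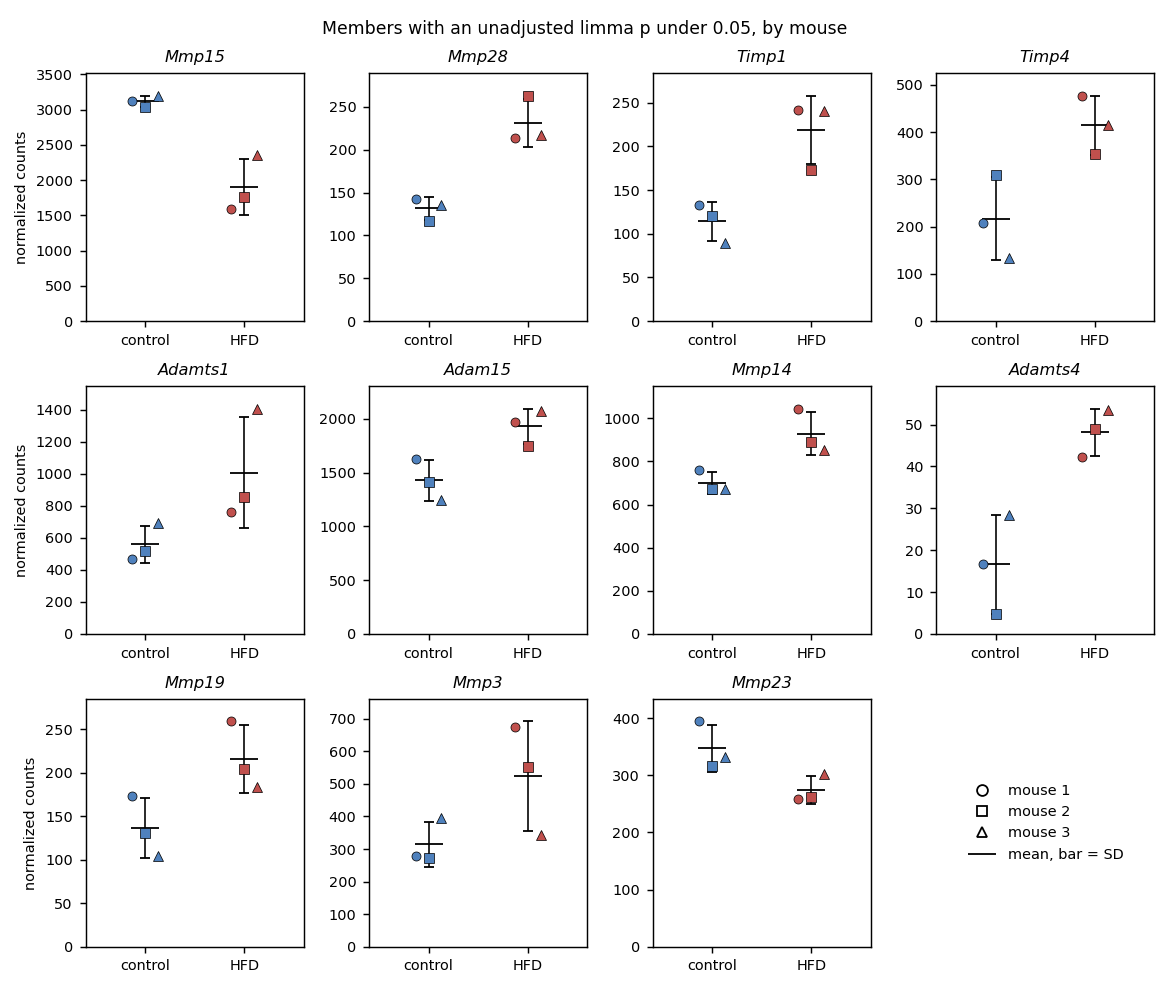
Normalized counts of the 11 members with an unadjusted limma p under 0.05 in each mouse (blue for control diet, red for HFD), with the mean and SD of 3 mice, ordered by p. The groups do not overlap for any of them except Mmp3, where HFD mouse 3 (343) lies below control mouse 3 (395).

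Among the 9 ADAM sheddases of somatic tissues, 8 were tested and 7 had a log2 fold change above 0, from 0.01 to 0.44. Adam15, which is found on endothelial cells and other cells and binds integrins, had 1967, 1751 and 2073 normalized counts in HFD and 1626, 1417 and 1241 in control mice. The groups did not overlap, with a log2 fold change of 0.44 ± 0.13 (SE), a limma adjusted p of 0.168 and a DESeq2 adjusted p of 0.0694. Exons of a gene on the opposite strand, 4731419I09Rik, cover 20.6% of the Adam15 exon bases. Adam9 also lay higher in all 3 HFD mice, with 1412, 1264 and 1256 against 1017, 1122 and 1182, but by a log2 fold change of only 0.24 (limma adjusted p = 0.428).

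Adam17, the main sheddase of TNF, and Adam10, that of Notch receptors and cadherins, overlapped between the diets. Adam17 had a log2 fold change of 0.19 (95% confidence interval -0.09 to 0.47) and Adam10 of 0.17 (-0.27 to 0.61), so a change of 2-fold lies outside both intervals. Adam19, a sheddase of neuregulin that is needed for heart development, had 1421, 1591 and 2400 in HFD mice 1, 2 and 3 and 1237, 1227 and 1693 in control mice. HFD mouse 3 was the highest of all, and the other HFD mice lay inside the control range. Of the 3 ADAMs without a catalytic site, Adam11 had a log2 fold change of -0.27 and Adam22 of 0.31, and all 3 overlapped between the diets. Adam1a, the one tested gene of the reproductive-tract ADAMs, shares 63.7% of its exon bases with Gm42878 and 24.0% with Mapkapk5 on the same strand, so its counts are uncertain.

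The ADAMTS proteases that cut proteoglycans such as versican and aggrecan included Adamts4, which had the largest fold of all tested members with all 6 mice. Adamts4 (aggrecanase-1) had 42.2, 49.0 and 53.4 normalized counts in HFD mice and 16.8, 4.79 and 28.4 in control mice. The HFD mice were close together and the control mice were widely spread at low counts, so the fold of 3.38 has a 95% confidence interval from 1.44 to 7.96 (log2 fold change 1.76 ± 0.56 SE, limma adjusted p = 0.212). Without control mouse 2 the log2 fold change was 1.097.

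Adamts1, which cuts versican and also restrains blood vessel growth, had 763, 853 and 1407 in HFD and 469, 518 and 691 in control mice. The groups did not overlap, and HFD mouse 3 was far above the other 2. The log2 fold change was 0.81 ± 0.23 (SE), with a limma adjusted p of 0.143, an edgeR adjusted p of 0.147 and a DESeq2 adjusted p of 0.00873, and it was 0.55 without HFD mouse 3. Its neighbor on chromosome 16, Adamts5 (aggrecanase-2), had a log2 fold change of -0.08 and overlapped. Of the 6 tested genes of this role 5 had a log2 fold change above 0.

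Adamts8 showed the widest spread of these genes among the HFD mice. It had 149.7, 229 and 1268 normalized counts in HFD mice 1, 2 and 3, against 218, 287 and 190.2 in control mice. HFD mouse 3 stood far above every other mouse, while HFD mouse 1 lay below and HFD mouse 2 inside the control range, and the log2 fold change of 0.62 became -0.30 without HFD mouse 3. Adamts15, which lies beside Adamts8 on chromosome 9, did not show that excess, although HFD mouse 3 was its highest too (322, 454 and 597 in HFD and 443, 304 and 383 in control mice).

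The procollagen N-propeptidases Adamts2, Adamts3 and Adamts14, which trim fibrillar procollagen, had log2 fold changes between -0.07 and 0.20, and all overlapped between the diets. Adamts2, the most highly expressed of them per kilobase, had a 95% confidence interval of -0.13 to 0.51. Of 9 further ADAMTS genes 6 were tested, and all 6 overlapped, among them Adamts7, which cuts COMP (log2 fold change -0.39), and Adamts10, which binds fibrillin (-0.03). The 5 ADAMTS-like genes all had log2 fold changes above 0, from 0.08 to 0.34, and none of them separated the diets. Adamtsl4 had 3077 and 3026 in HFD mice 1 and 2 but 2006 in HFD mouse 3, against 2402, 2235 and 1883 in control mice.

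The members thus varied among the HFD mice in different ways. The median SD of log2 values over the 51 members was 0.31 in HFD and 0.25 in control mice, where that over all genes tested was 0.22 and 0.19. Within the HFD group, HFD mouse 1 held either the highest or the lowest value for 76.5% of the members, HFD mouse 3 for 74.5% and HFD mouse 2 for 49.0%, against 61.8%, 72.2% and 65.9% over all genes tested. HFD mouse 3 was above the mean of the other 2 HFD mice by 4.52 (log2) for Mmp24, by 2.77 for Adamts8 and by 0.80 for Adamts1. The same difference was -3.23 (log2) for Mmp27, -1.27 for Adamts12, -1.18 for Adamts6 and -0.83 for Mmp3.

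**Figure D5:**
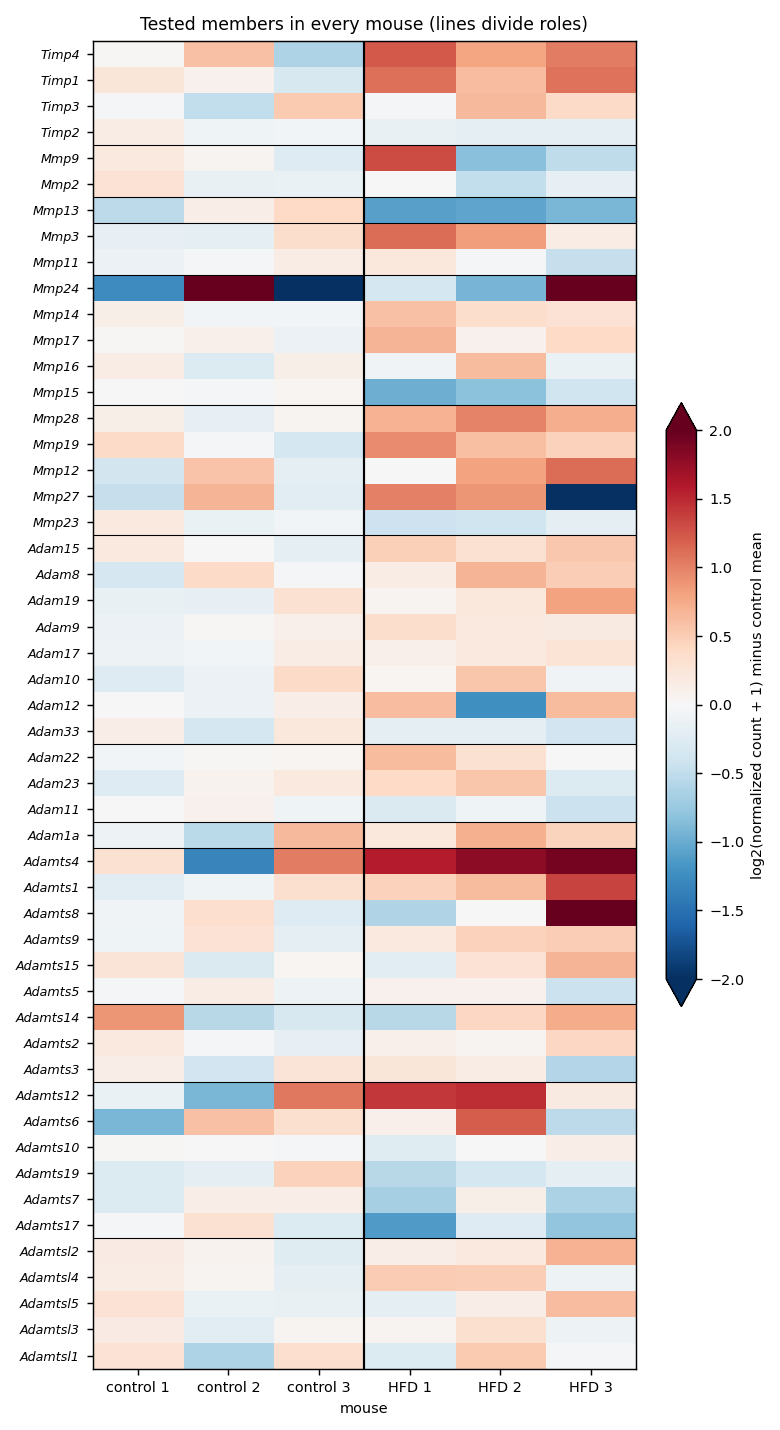
Log2(normalized count + 1) of the 51 tested members in each mouse minus the mean of the 3 control mice, by role (red above, blue below, color limits at 2 in either direction). Timp4, Timp1, Mmp28, Mmp19, Adam15, Adamts4 and Adamts1 are red in all 3 HFD columns, Mmp15 and Mmp13 are blue in all 3, and Adamts8, Mmp24, Mmp27, Mmp3 and Mmp9 differ between HFD mice.

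Proteins that activate these enzymes, inhibit them or are cut by them were looked at in 7 lists of 55 genes, of which 45 were tested. Of these, 13 were higher and 2 lower at an unadjusted p under 0.05 (limma), where 6.66% and 5.55% of all genes tested were, and the median log2 fold change was 0.16.

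The plasminogen system activates MMP precursors through plasmin. Of its genes, Plaur, the receptor of urokinase, had 76.3, 81.6 and 96.5 in HFD and 43.7, 19.2 and 35.0 in control mice (log2 fold change 1.42, limma adjusted p = 0.0874, DESeq2 adjusted p = 0.0128). Plat (tissue plasminogen activator) had a log2 fold change of 0.50 and Serpine2, an inhibitor of the activators, of 0.29. Among the cathepsins, Ctss (cathepsin S) is an elastin-cutting protease of macrophages, whose markers differed between the diets only in part (values below). It rose from 500.5, 467 and 487 in control mice to 922, 752 and 1007 in HFD mice (log2 fold change 0.87 ± 0.14 SE, limma adjusted p = 0.0234). Its adjusted p was 0.177 without a variance trend and between 0.0721 and 0.116 without HFD mouse 1 or any 1 control mouse.

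The proprotein convertases, which remove the propeptide of the membrane-type MMPs and most ADAMs, did not move together. Furin had 4076, 4216 and 4004 in HFD and 3268, 3262 and 3145 in control mice, which did not overlap (log2 fold change 0.35, limma adjusted p = 0.159). Pcsk6 (PACE4), which in atria also processes corin, had 861, 828 and 1037 in HFD and 1256, 1233 and 1284 in control mice, all lower in HFD (log2 fold change -0.48, limma adjusted p = 0.111, DESeq2 adjusted p = 0.0312). None of the 8 tested genes for trafficking of ADAM17 and ADAM10 had an unadjusted p under 0.05 in limma.

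Among substrates of the ADAMTS proteases, Vcan (versican) had 454, 599 and 719 in HFD and 401, 391 and 368 in control mice, without overlap (log2 fold change 0.58, limma adjusted p = 0.161, DESeq2 adjusted p = 0.0429). Fbn1 and Vwf had log2 fold changes of 0.29 and 0.36, also without overlap. Comp, a cartilage and tendon protein, had one of -0.76 with overlap (limma adjusted p = 0.301, DESeq2 adjusted p = 0.0476), control mouse 1 having 1540 against 460.1 to 756 in the other mice. Among substrates of the ADAM sheddases, the TNF receptors Tnfrsf1a and Tnfrsf1b and the IL-6 receptor Il6ra had log2 fold changes of 0.30, 0.47 and 0.58, with limma adjusted p between 0.363 and 0.383. Papln, a secreted protein with homology to the ADAMTS family, had one of 0.88 (limma adjusted p = 0.330).

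Markers of other cell types differed between the diets in part. The sum of 6 macrophage markers was 9168 to 10472 normalized counts in HFD and 6724 to 8398 in control mice, and Cd163 alone among them passed the adjusted threshold. Cd68 also did not overlap between the diets, while Adgre1, Csf1r, Mrc1 and Lyz2 overlapped. The sum of 4 endothelial markers was 11973 to 13633 against 9821 to 10700, with Pecam1 alone not overlapping (5340 to 6259 against 3842 to 4106) and Cdh5, Kdr and Tek overlapping. That of 3 brown adipocyte markers was 444 to 1139 against 145 to 269.8, with Ucp1 and Cidea past the threshold. The sum of 3 Schwann cell markers was lower, 315 to 468 against 494 to 620.3. The sum of 6 fibroblast markers, 33117 to 34962 against 33585 to 39333, overlapped, as did those of smooth muscle, mesothelial and white adipocyte markers. The part of these cells in the values of the members was not tested.

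The promoters of 4 members are shown because Mmp15 had the smallest p of all members, and Timp1, Mmp3 and Adamts1 the smallest among the TIMPs, the stromelysins and matrilysin, and the ADAMTS proteases. The sequences are the 250 bases before the start of the gene as RefSeq annotates it (GRCm38.p6), 5′ to 3′ on the strand of the gene, and capitals mark matches, on either strand, to the letters of an AP-1 site (TGANTCA), a GC box (GGGCGG) or a TATA box (TATAAA).
Mmp15, chr8:95352046-95352295, plus strand: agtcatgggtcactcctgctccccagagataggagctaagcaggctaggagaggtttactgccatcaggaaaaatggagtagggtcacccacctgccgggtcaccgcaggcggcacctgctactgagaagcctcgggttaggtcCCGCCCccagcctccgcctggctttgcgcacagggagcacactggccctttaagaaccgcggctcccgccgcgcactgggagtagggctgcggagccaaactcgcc
Timp1, chrX:20869916-20870165, plus strand: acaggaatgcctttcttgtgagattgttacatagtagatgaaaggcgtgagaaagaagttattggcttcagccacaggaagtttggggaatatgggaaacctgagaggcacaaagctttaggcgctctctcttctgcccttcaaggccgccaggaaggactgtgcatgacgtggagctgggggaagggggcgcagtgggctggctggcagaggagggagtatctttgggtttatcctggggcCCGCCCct
Mmp3, chr9:7445572-7445821, plus strand: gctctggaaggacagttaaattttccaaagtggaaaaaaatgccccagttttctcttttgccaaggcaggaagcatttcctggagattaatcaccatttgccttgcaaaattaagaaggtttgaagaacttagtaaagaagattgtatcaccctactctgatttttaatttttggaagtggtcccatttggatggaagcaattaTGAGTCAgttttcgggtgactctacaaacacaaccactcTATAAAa
Adamts1, chr16:85803114-85803363, minus strand: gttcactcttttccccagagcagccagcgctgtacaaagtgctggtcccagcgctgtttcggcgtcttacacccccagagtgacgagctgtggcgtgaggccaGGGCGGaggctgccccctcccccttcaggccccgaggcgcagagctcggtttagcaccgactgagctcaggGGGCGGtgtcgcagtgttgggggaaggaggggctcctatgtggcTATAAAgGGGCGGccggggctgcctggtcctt

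These promoters differ in makeup. That of Mmp3 has 37.6% G and C and no GC box. It holds an AP-1 match that starts 46 bases before the gene and a TATA match that starts only 7 bases before it. Those of Mmp15, Timp1 and Adamts1 have 63.6%, 54.4% and 65.6% G and C and 1, 1 and 3 GC boxes. Adamts1 also has a TATA match, 32 bases before the start. In the same windows, 33 of the 51 tested members were found in the promoter table used. The AP-1 letters occur in 4 of them, Adam19, Mmp12, Mmp13 and Mmp3 (12.1%), against 6.75% of all 32851 promoters. A GC box occurs in 21 of the 33 (63.6%), against 32.7% of all promoters, and a TATA box in 4 (12.1%), against 12.4%. A member was counted if any of its promoters matched, whereas the background counts each promoter. The members had also passed the filter on mean level, which was not applied to the background. The shares are therefore not on like terms and do not show a trait of these families. Mmp3 and Mmp13, which lie in the same cluster, both hold an AP-1 and a TATA match. A match to these letters describes the sequence only.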

How the data were processed

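The deposited signal is, for each gene and mouse, the authors' read count after division by the size factor DESeq2 gave that mouse (normalized counts). The authors aligned reads of directional libraries to GRCm38 (Ensembl annotation) with STAR and counted with Salmon. Whether strand was used in counting is not stated. The authors' own DESeq2 columns (log2 fold changes with errors, p-values, and scores such as the Wald statistic) were not used. The smallest value above 0 of a mouse was taken as 1 read, and 100% of values came out whole (tolerance 0.001). Gene symbols were taken from GENCODE for GRCm38 (42462 of 43432 identifiers), and the name rule was applied without regard to case, as the table's symbols are in capitals. Levels per kb used the union of exons. A row without a gene name held 0% of reads.

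The diets were compared by limma 3.58.1, run in R 4.3.3 (variance trend, two-sided), on log2(normalized count + 1), which understates changes of low genes, where the mean reached 10, with Benjamini-Hochberg adjustment over all of them and a threshold of 0.05. The design expected normalized values. edgeR 4.0.16 and DESeq2 1.42.0 on recovered reads, other normalizations, filters, a pseudocount of 0.1, the replicate number as a block and leaving out each mouse were alternatives. The test was checked on simulated data. Ratios had an exact permutation test. Named members are Timp1 to Timp4, Mmp2, Mmp9 and Mmp14, those with an unadjusted p under 0.05 and the 2 most abundant of each role. Named partners have an unadjusted p under 0.05, apart from any item not reported here. Adam9, Adam10, Adam17, Adamts6, Adamts8, Adamts12, Mmp24 and Mmp27 were named after their values were seen. The members and lists were chosen with earlier results of these data known.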

Additional observations from a re-analysis of the deposited data

How the results depend on the processing

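The low sample number limits every comparison: with 3 mice per diet, calls depended on the model of the variance and on single mice. Over all genes, 74 higher and 40 lower calls became 0 and 0 in limma without a variance trend (872 and 845 at an unadjusted p under 0.05), 292 and 178 with DESeq2, 49 and 20 with a log2 fold change beyond 1 required, and between 10 and 218 higher and 4 and 124 lower when a mouse was left out, the most without HFD mouse 3 and the fewest without control mouse 2. The count of members called higher was 0 in limma with all mice and no block and 4 with DESeq2, and the count called lower became 1 (Mmp15) with quantile normalization, without mitochondrial genes, with either other filter and with DESeq2. Leaving out a mouse gave 0 to 1 members higher (Mmp3, without HFD mouse 3) and 0 to 1 lower (Mmp15, without HFD mouse 3). edgeR with TMM or RLE factors called 0 members. The causes of these differences were not tested.

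Of 540 values of 34 named members under the alternatives, 502 kept direction and side of the threshold, 13 passed it and 25 changed sign, none of them a called value. On recovered reads (edgeR TMM, edgeR RLE, DESeq2) the log2 fold change was 0.31, 0.31 and 0.30 for Mmp9, -0.32, -0.32 and -0.25 for Mmp24 and 0.35, 0.35 and 0.35 for Mmp27. With a mouse left out it ranged from -0.67 to 0.40 for Mmp9, -0.028 to 0.37 for Adamtsl5, -0.12 to 0.071 for Adamts10, -0.26 to 0.19 for Adamts3, -0.17 to 0.089 for Adamts5, -0.25 to 0.094 for Mmp11, -0.017 to 0.36 for Adam10, -0.30 to 1.24 for Adamts8, -0.64 to 2.96 for Mmp24 and -0.70 to 0.95 for Mmp27.

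The labels do not say whether the replicate numbers pair the mice, and the values showed no clear pairing. Deviations of same-numbered mice correlated at 0.12, -0.03 and 0.00 over genes, against -0.15 to 0.16 for mice of unlike number. Not every mouse correlated best with its own number. With 3 mice per diet this check cannot settle whether mice were paired. With the replicate number as a block, 113 genes were higher and 44 lower, and 1 member was higher (Adamts1, adjusted p = 0.0285) and 1 lower (Mmp15, 0.0430).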

Other observations

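HFD mouse 3, which stood apart for Adamts8, also stood apart for genes outside the families described, chosen after their values were seen. Nppb (B-type natriuretic peptide) had 18872 normalized counts in that mouse against 662 and 1300.3 in the other HFD mice and 2237 to 5214 in control mice. Ankrd1, a stress-responsive sarcomere protein, had 95171 against 5935 and 16620.1, and 17071 to 27665 in control mice. Tnfrsf12a, the receptor of TWEAK, had 2693 against 305 and 404, and 337 to 568 in control mice.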
